A study of Mus musculus with 18 samples.

Results

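The 10 genes described here encode the UDP-glucuronosyltransferases of families 2 and 3 that were chosen for study by their symbols, with earlier results of these data known: Ugt2a3, Ugt2b1, Ugt2b5, Ugt2b34, Ugt2b35, Ugt2b36, Ugt2b37, Ugt2b38, Ugt3a1 and Ugt3a2. They were 10 of 52230 genes with a summed estimated count in liver RNA-sequencing libraries from 18 mice, and all 10 were among the 10938 genes tested. Mice of the GCKR-P446L-EMI-B6N line were on standard chow and were either wild type for the glucokinase regulatory protein GKRP (PP, proline at the studied residue) or homozygous for the knock-in leucine form (LL). The knock-in is a single substitution in Gckr carried in all cells, so RNA counts per gene cannot check it. There were 4 PP and 4 LL males and 5 PP and 5 LL females, with 1 library per mouse. The labels give ages of 9, 12, 14 and 14 weeks for male PP, 13, 13, 13 and 14 for male LL, 9, 9, 11, 12 and 14 for female PP and 11, 11, 13, 13 and 14 for female LL mice, whereas the series description gives 14 weeks for every mouse. All groups shared line, diet and tissue. The 4 comparisons were female against male within each genotype and LL against PP within each sex, and each group enters a pair of them, so the comparisons share samples.

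UDP-glucuronosyltransferases are membrane enzymes of the endoplasmic reticulum. Those of family 2 join glucuronic acid from UDP-glucuronic acid to steroids, bile acids, fatty acids and drugs, which makes them water soluble for export into bile or blood. Family 3 enzymes use other sugar donors, such as UDP-N-acetylglucosamine and UDP-glucose. In rodent liver several family 2 genes are known to differ between the sexes, under the pattern of growth hormone release.

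The 8 Ugt2 genes lie in a single cluster on chromosome 5 (GRCm39, GENCODE M39), ordered as Ugt2b34, Ugt2b1, Ugt2b35, Ugt2b36, Ugt2b5, Ugt2b37, Ugt2a3 and Ugt2b38 from 87037626 to 87572062. Ugt2b35 is on the plus strand and the other 7 are on the minus strand. Ugt3a2 (9276974 to 9315118) and Ugt3a1 (9335636 to 9371564) are neighbours on the plus strand of chromosome 15. All 10 are annotated as protein coding.

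Several of these genes are near copies, which bears on every count below because reads from a shared stretch are divided between genes by a likelihood model. The coding sequences of Ugt2b38 and Ugt2b5 were 97.05% identical, with 47 differences over 1593 bases. Ugt2b37 was 94.66% identical to Ugt2b5 and 94.1% to Ugt2b38, and Ugt3a1 was 93.26% identical to Ugt3a2. A stretch of 90 coding bases near the end of the reading frame (coding positions 1422 to 1511, counted from 1 at the start codon, read from GRCm39 with the M39 annotation) is shown for the 3 near copies and for Ugt2b36. It was picked as the stretch of this length with the most differences between Ugt2b38 and Ugt2b5. Capitals mark bases that differ from Ugt2b38.
Ugt2b38: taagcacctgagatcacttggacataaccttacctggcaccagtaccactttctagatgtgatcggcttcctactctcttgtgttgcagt
Ugt2b5: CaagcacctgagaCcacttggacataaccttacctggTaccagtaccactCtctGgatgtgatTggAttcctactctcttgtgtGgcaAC
Ugt2b37: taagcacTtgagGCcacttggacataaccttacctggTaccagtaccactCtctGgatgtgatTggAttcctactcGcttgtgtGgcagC
Ugt2b36: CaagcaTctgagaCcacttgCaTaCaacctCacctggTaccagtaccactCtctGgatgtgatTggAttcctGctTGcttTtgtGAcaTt

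Within this stretch Ugt2b5 differed from Ugt2b38 at 10 bases, Ugt2b37 at 11 and Ugt2b36 at 19. Over the whole coding sequence they differed from Ugt2b38 at 47, 94 and 200 bases, so most of these bases lie outside the stretch. The coding sequences were cut into overlapping words of 31 bases, which were searched for in the whole transcripts of all annotated genes. For Ugt2b5, 65.9% of its words occurred in at least 1 other gene, against 61.2% for Ugt2b38, 39.3% for Ugt2b37, 29.9% for Ugt3a2 and 28.7% for Ugt3a1. The share was 15.99% for Ugt2b36, 10.7% for Ugt2a3, 8.53% for Ugt2b35, 8.09% for Ugt2b34 and 1.35% for Ugt2b1. Ugt2b38 still had 606 words of its own and Ugt2b37 had 949. Counts of Ugt2b5, Ugt2b37 and Ugt2b38 are therefore uncertain as a group of 3, and those of Ugt3a1 and Ugt3a2 as a pair, whereas almost all coding words of Ugt2b1 are its own. The untranslated parts of the members were not cut into words.

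**Figure D1:**
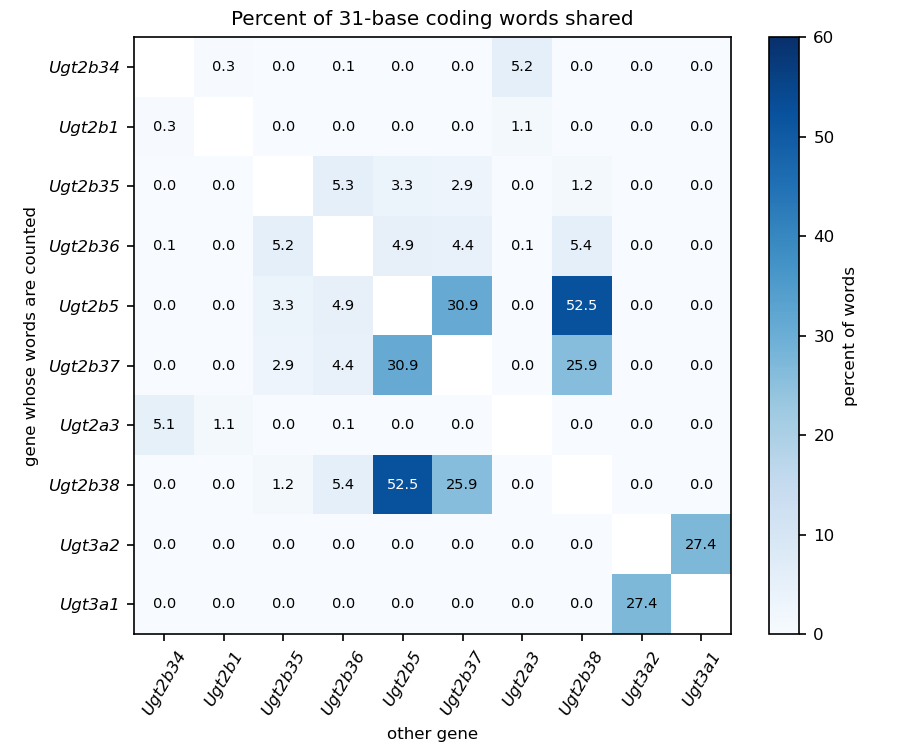
Percent of the 31-base coding words of each gene (rows) that also occur in a transcript of each other member (columns). Genes are in chromosome order. Ugt2b5 and Ugt2b38 shared 52.5% of their words, Ugt2b5 and Ugt2b37 30.9%, and Ugt3a1 and Ugt3a2 27.4%, while family 2 and family 3 genes shared none.

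The libraries held 3794671 to 6613905 estimated counts each. The hepatocyte markers Alb, Ttr, Apoa1, Cps1, Tat and Hnf4a summed to 368609 to 797352 normalized counts per library, against 456 to 1106 for 15 markers of other liver cells. Most of the hepatocyte sum was Alb, with group means of 348169 to 666570 normalized counts. The bile duct markers Krt19 and Krt7 were below 3 normalized counts in every library. The estimated fragment length of the libraries was 518 ± 95.7 bases in PP and 407 ± 156 in LL males, and 448 ± 108 in PP and 292 ± 52.1 in LL females (SD), and in females it was shorter in LL mice (exact permutation p = 0.0159, two-sided, n = 5 each).

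On a scale per transcript length (TPM, the transcript abundance scaled to 1 total per library), Ugt2b5 was the highest of the 10 genes in each group, with means of 336 ± 46.5 TPM in PP males, 440 ± 102 in LL males, 426 ± 79.6 in PP females and 344 ± 17.2 in LL females (SD). Ugt2b36 came next at 241 ± 44.2, 330 ± 24.0, 391.7 ± 152 and 298 ± 45.9 TPM in the same order, and its range overlapped that of Ugt2b5 in every group. The TPM of Ugt2b36 was partly carried by short transcript models, whose share ran from 5.56% in female LL 4 to 60.8% in female PP 3, so its highest library (660 TPM in female PP 3) held 259 TPM on the full-length transcript. Ugt2b1 followed in both male groups, at 179 ± 21.3 TPM in PP and 196 ± 48.4 in LL mice, without overlap with its neighbours in the order. In females Ugt2b1 (121 ± 21.6 TPM in PP, 101 ± 4.96 in LL) fell among Ugt2a3, Ugt3a1 and Ugt2b34, and the 4 genes could not be ordered, since each range overlapped the next. Ugt3a2 (22.9 to 32.8 TPM as group means) and Ugt2b35 (15.7 to 20.1) were lower in every group. By group mean the lowest pair was Ugt2b38 and Ugt2b37, and the order of their means differed by sex. In both male groups the range of Ugt2b38 overlapped that of Ugt2b35. In males Ugt2b38 had 12.4 ± 2.69 TPM in PP and 12.4 ± 3.35 in LL mice, above Ugt2b37 at 1.63 ± 0.67 and 1.95 ± 0.82 without overlap, whereas in females Ugt2b37 had 5.43 ± 3.41 TPM in PP and 2.99 ± 1.75 in LL mice and Ugt2b38 had 2.30 ± 1.67 and 0.561 ± 0.487, with overlapping ranges.

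**Figure D2:**
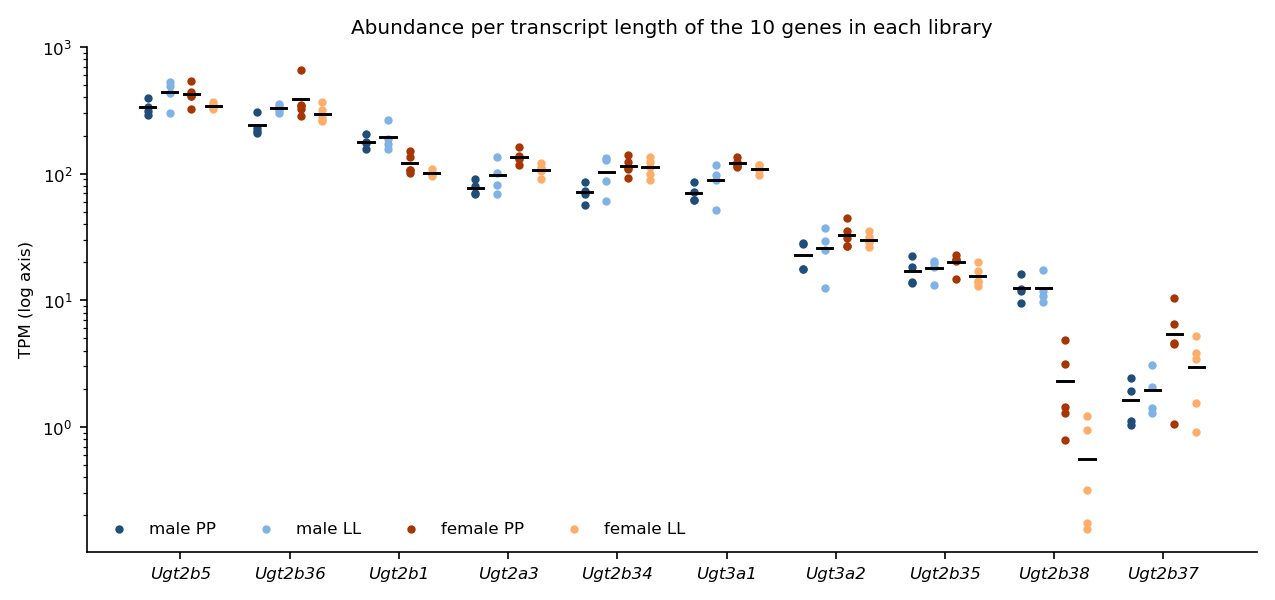
TPM of each gene on a log axis, with 1 point per library, groups by colour and a bar at the group mean. Ugt2b5 and Ugt2b36 lead with group means from 241 to 440 TPM, and Ugt2b38 is the gene whose points separate most between males (9.56 to 17.3 TPM) and females (0.155 to 4.84 TPM).

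Of the 10 genes, 3 were lower in PP females than in PP males and none was higher. The gene with the widest difference was Ugt2b38, a family 2 enzyme of liver, followed by Ugt2b1 and Ugt2b35. Across all tested genes 6.45% were differentially expressed in this comparison, and 2.77% were lower in females. A call needed a DESeq2 adjusted P below 0.05 and a fold of 1.3 or more, or 0.7 or less. In bulk liver, fewer cells of a type and less RNA per cell cannot be told apart.

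Ugt2b38 had 238, 146, 339 and 178 normalized counts in the male PP libraries and 31.1, 11.8, 46.2, 13.6 and 7.63 in the female PP libraries. The lowest male library was above the highest female library. The difference was 10.2-fold (log2 fold change -3.35 ± 0.51 SE, DESeq2 adjusted P = 7.89e-09). In LL mice Ugt2b38 had 132, 197, 150 and 158 normalized counts in males and 12.7, 3.95, 9.76, 1.23 and 2.19 in females, again without overlap (25.7-fold, log2 fold change -4.69 ± 0.56 SE, DESeq2 adjusted P = 4.18e-14). The female LL estimates are of few reads, and 2 of these libraries held 1.19 and 1.56 estimated counts before scaling, so the size of the fold is loosely set (95% interval of the log2 fold change -5.79 to -3.58). Both calls held under all 28 alternatives. As a share of its near copy Ugt2b5 in the same library, Ugt2b38 was 2.27% to 5.63% in males and 0.0361% to 0.910% in females. How reads were divided between the near copies was not tested, as the tables hold no reads.

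Ugt2b1, the gene with the fewest shared words, had 6106, 4001, 4946 and 3954 normalized counts in male PP and 1975, 1403, 2226, 1468 and 1528 in female PP mice. Every male library was above every female library, and the level in females was 2.76-fold lower (log2 fold change -1.47 ± 0.17 SE, DESeq2 adjusted P = 1.28e-15). In LL mice the counts were 2820, 4255, 3827 and 3880 in males and 1540, 1710, 1551, 1327 and 1335 in females, also without overlap (2.48-fold, log2 fold change -1.31 ± 0.17 SE, DESeq2 adjusted P = 3.54e-12). Ugt2b1 was called in both genotypes under all 28 alternatives, TPM included.

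Ugt2b35 showed a smaller difference. It had 549, 582, 610 and 690 normalized counts in male PP and 296, 386, 436, 389 and 446 in female PP mice, with no overlap (1.56-fold, log2 fold change -0.64 ± 0.15 SE, DESeq2 adjusted P = 0.000479). In LL mice the counts were 452, 388, 549 and 453 in males and 294, 361, 287, 362 and 244 in females (1.49-fold, log2 fold change -0.58 ± 0.15 SE, DESeq2 adjusted P = 0.00405). All 4 male LL libraries were above all 5 female LL libraries. On the TPM scale the sign of the Ugt2b35 difference turned in PP mice (0.24, limma adjusted P = 0.319) and the call was lost in LL mice (-0.18, limma adjusted P = 0.624). In 4 further alternatives the LL difference missed the fold limit. It was -0.48 without male LL 3, -0.50 without female LL 5, -0.50 with fragment length as a term and -0.51 with the transcript length offset.

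Ugt2b5, the most abundant of the genes, had 6215, 5038, 6026 and 5597 normalized counts in male PP and 4246, 3828, 5072, 2974 and 3947 in female PP mice. The groups overlapped by 1 library on each side, and the difference passed the adjusted P limit but not the fold limit (log2 fold change -0.51 ± 0.13 SE, fold 0.702, DESeq2 adjusted P = 0.00222). In LL mice, with 5817, 5540, 5867 and 4734 counts in males and 3716, 3747, 3431, 3416 and 3134 in females, the groups did not overlap and Ugt2b5 was called (log2 fold change -0.65 ± 0.13 SE, DESeq2 adjusted P = 3.44e-05). That Ugt2b5 was called in 1 genotype and not in the other is not a difference between genotypes (interaction -0.14 ± 0.18 SE, DESeq2 adjusted P = 0.861). In PP mice it was called in 5 of 28 alternatives, and on the TPM scale its sign turned (0.33, limma adjusted P = 0.156). In LL mice the call was lost on that scale (-0.32, limma adjusted P = 0.343). In all, 4 of the 10 genes were lower and none higher in LL females than in LL males, against 2.79% of tested genes lower and 6.12% called in either direction.

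Ugt2b37 was the only member with a higher estimate in females in both genotypes, and it did not pass the test in either. In males it had 49.6, 29.4, 23.5 and 15.3 normalized counts with PP and 23.3, 34.8, 19.6 and 20.5 with LL, and in females 64.7, 42.7, 44.5, 97.8 and 10.4 with PP and 41.9, 57.3, 36.6, 8.64 and 15.3 with LL. The female libraries spanned the male range on both sides. The log2 fold change was 0.84 (95% interval -0.14 to 1.82, DESeq2 adjusted P = 0.406) in PP and 0.39 (-0.61 to 1.39, adjusted P = 0.732) in LL mice. Ugt2b38, called by sex in both genotypes, has 94.1% coding identity with Ugt2b37, and the difference between the genes in their values by sex was not tested.

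The promoters of these near copies are shown because the 3 genes are close in sequence and Ugt2b38 was called by sex in both genotypes, Ugt2b5 in LL mice and Ugt2b37 in neither. Each sequence is the 250 bases before the start of the gene on GRCm39 (GENCODE M39), written 5′ to 3′ on the strand of the gene, with capitals at bases not matched to Ugt2b38 in a pairwise alignment.
Ugt2b38, minus strand, chr5:87572063-87572312: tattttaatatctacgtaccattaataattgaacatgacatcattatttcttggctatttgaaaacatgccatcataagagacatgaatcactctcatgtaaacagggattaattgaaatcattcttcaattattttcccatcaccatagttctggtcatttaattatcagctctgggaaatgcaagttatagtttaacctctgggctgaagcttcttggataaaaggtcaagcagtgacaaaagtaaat
Ugt2b37, minus strand, chr5:87402664-87402913: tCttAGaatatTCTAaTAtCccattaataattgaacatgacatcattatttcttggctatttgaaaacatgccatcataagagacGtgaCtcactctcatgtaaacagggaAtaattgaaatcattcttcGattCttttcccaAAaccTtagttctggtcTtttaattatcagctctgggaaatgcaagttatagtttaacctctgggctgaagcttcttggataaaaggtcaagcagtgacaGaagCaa
Ugt2b5, minus strand, chr5:87288212-87288461: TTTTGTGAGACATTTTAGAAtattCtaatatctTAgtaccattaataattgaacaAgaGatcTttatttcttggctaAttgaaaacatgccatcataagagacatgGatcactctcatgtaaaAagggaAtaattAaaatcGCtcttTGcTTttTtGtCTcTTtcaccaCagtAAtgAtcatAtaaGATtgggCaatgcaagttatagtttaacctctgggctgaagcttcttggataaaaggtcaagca

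The promoters of Ugt2b37 and Ugt2b38 were 90.87% identical, closer than either was to Ugt2b5 (73.33% and 72.79%). Of the 250 bases, 21 in Ugt2b37 and 52 in Ugt2b5 were not matched to Ugt2b38. TTCNNNGAA, the STAT5-type palindrome of the factor that carries growth hormone signals, had no match in the 10 windows and was present in 6.72% of the 10937 promoters of tested genes, searched on both strands. The absence of a match says only that these letters are not in this window.

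The other 5 genes did not pass the test by sex in either genotype. Ugt2b36 had 2772 to 3949 normalized counts in male PP and 2561 to 3095 in female PP mice (log2 fold change -0.30 ± 0.12 SE, 95% interval -0.54 to -0.06, DESeq2 adjusted P = 0.123). Ugt2b34 had log2 fold changes of -0.19 (95% interval -0.47 to 0.09) in PP and -0.21 (-0.49 to 0.07) in LL mice. For Ugt2a3, the only tested gene of subfamily 2A, they were -0.07 (-0.33 to 0.18) and -0.17 (-0.42 to 0.09). Of the family 3 genes, Ugt3a1 had a log2 fold change of -0.09 (-0.32 to 0.14) in PP and -0.00 (-0.23 to 0.23) in LL mice, and Ugt3a2 -0.29 (-0.64 to 0.06) and 0.00 (-0.34 to 0.35). The intervals of Ugt2b36 and Ugt3a2 in PP mice reached past the fold limit. Over all 10 genes the median log2 fold change was -0.30 in PP and -0.21 in LL mice, against -0.00 and 0.01 over all tested genes. The groups did not overlap, with females lower, for 3 genes in PP and 4 in LL mice, against 4.53% of tested genes in each.

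**Figure D3:**
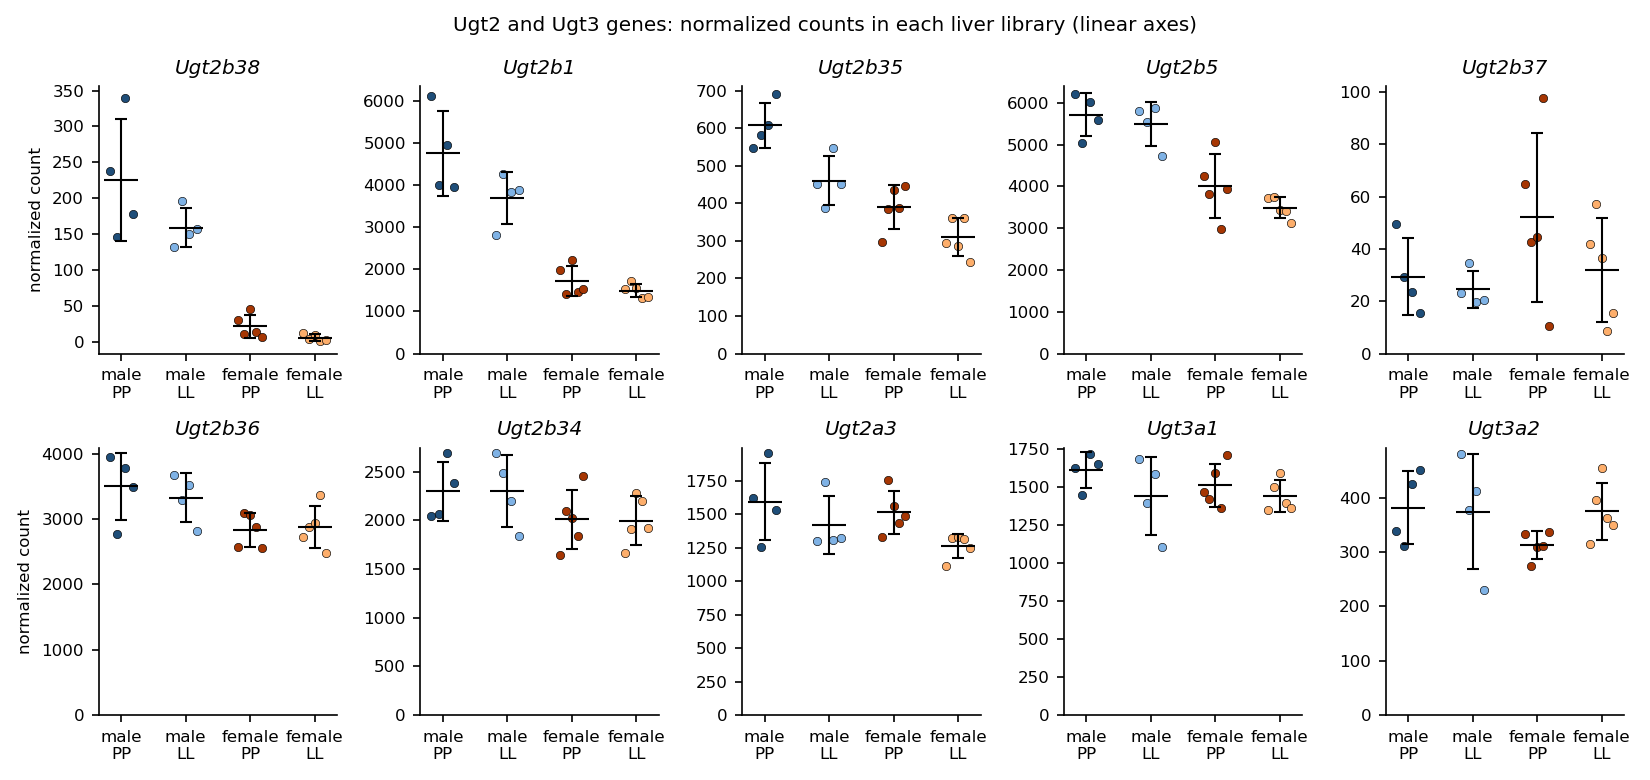
Normalized counts (linear axes from 0, a separate scale for each gene) in every library by group, with the group mean and SD as a bar. Ugt2b38, Ugt2b1 and Ugt2b35 separate by sex within each genotype, Ugt2b5 does so in LL mice, and the ranges of the other genes overlap between the sexes.

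The scale matters for the sex comparisons, since the TPM of all tested genes had a median log2 difference of 0.50 between female PP and male PP mice and 0.20 between female LL and male LL mice. On log2(TPM + 1) with limma, 39.4% of all tested genes were called in PP mice (4307 of 10938, of which 4223 were higher in females) and 4.12% in LL mice. Of the 10 genes, 7 were called there in PP and 2 in LL mice. In PP mice Ugt2a3 (0.80), Ugt3a1 (0.77), Ugt2b34 (0.69), Ugt2b36 (0.65) and Ugt2b37 (1.13) were higher in females, and Ugt2b1 (-0.58) and Ugt2b38 (-2.14) lower. The higher values are to be read against that median of 0.50. Summed over the 10 genes, normalized counts were 20714 ± 2404 in PP and 18694 ± 1440 in LL males, and 14383 ± 1297 in PP and 13284 ± 811 in LL females (SD). Females were lower than males in each genotype with no overlap (log2 ratio -0.53 in PP and -0.49 in LL, exact permutation p = 0.0159 each, the smallest this design gives). The summed TPM gave the opposite sign in PP mice (0.41, exact permutation p = 0.0317), and the sum scaled to library totals gave -0.16 (exact permutation p = 0.222), so the direction of the total depends on the scale. Alb was also higher in females in PP mice. Its mean was 348169 normalized counts in male PP and 666570 in female PP mice (log2 fold change 0.94 ± 0.10 SE, DESeq2 adjusted P = 2.23e-17). The cause of the scale difference was not tested.

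By genotype none of the 10 genes passed the test in males with DESeq2, edgeR or limma, and 2 had an unadjusted p below 0.05 with DESeq2. Across all genes 0.283% were called and 7.81% had an unadjusted p below 0.05. Lower groups without overlap, which 2.27% of genes showed, were seen for Ugt2b35 alone. Ugt2b35 had 388 to 549 normalized counts in the male LL libraries and 549 to 690 in the male PP libraries, which met at 548.8 counts both in the highest LL and in the lowest PP library (log2 fold change -0.40 ± 0.15 SE, DESeq2 adjusted P = 0.245). Ugt2b1 was next (log2 fold change -0.36 ± 0.18 SE, DESeq2 adjusted P = 0.409). Of the 10 genes, 9 had estimates below 0, with a median log2 fold change of -0.16 against 0.00 over all genes, and on the TPM scale, where the median of all genes was 0.21, the estimates of Ugt2b1, Ugt2b5, Ugt2b35, Ugt2b36 and Ugt2b37 turned above 0, as did those of Ugt2a3, Ugt3a1 and Ugt3a2. The summed level was not distinguishable by genotype in males (log2 ratio -0.15, exact permutation p = 0.2, n = 4 each, smallest possible 0.0286). Ugt2b5 had a 95% interval of -0.32 to 0.21 and Ugt2b34 one of -0.29 to 0.30.

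In females none of the 10 genes passed the test with DESeq2, edgeR or limma either, with 3 at an unadjusted p below 0.05 with DESeq2. Across all genes 0.658% were called and 13.0% had an unadjusted p below 0.05. The nearest was Ugt2b38. Its female PP libraries (7.63 to 46.2 normalized counts) overlapped the female LL libraries (1.23 to 12.7), at a 3.57-fold difference (log2 fold change -1.83 ± 0.55 SE, DESeq2 adjusted P = 0.0659). The call changed with the fit. It was made in 6 of 28 alternatives and the adjusted P ran from 0.00377 without female PP 5 to 0.626 with fragment length as a term, where the log2 fold change was -1.41. The estimate was -1.35 without female PP 3, the library with the highest level, and -2.27 without female LL 1. With age as a term it was -1.64 (DESeq2 adjusted P = 0.162), the mean ages of the female groups being 11 weeks in PP and 12.4 weeks in LL mice. Fragment length, as given above, and the mitochondrial share of counts (10.2% ± 1.11 in PP, 12.5% ± 1.34 in LL, SD, exact permutation p = 0.0317, n = 5 each) also differed between the female groups, and their part in the Ugt2b38 value was tested only by the term for fragment length.

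Ugt2a3 was lower in every female LL library (1113 to 1329 normalized counts) than in every female PP library (1333 to 1759), and did not pass the test (log2 fold change -0.26 ± 0.12 SE, DESeq2 adjusted P = 0.292). It was the only member whose female groups did not overlap, against 1.16% of tested genes that were lower in this way. Ugt2b35 did not pass either (log2 fold change -0.34 ± 0.14 SE, DESeq2 adjusted P = 0.221). Ugt2b5 had an interval of -0.44 to 0.04, Ugt2b1 of -0.52 to 0.11, Ugt2b36 of -0.20 to 0.25, Ugt3a1 of -0.28 to 0.15 and Ugt3a2 of -0.06 to 0.59. The median over the 10 genes was -0.20 against 0.01 over all genes. The summed normalized count was not distinguishable by genotype (log2 ratio -0.11, exact permutation p = 0.127, n = 5 each), and without female PP 4 the p was 0.0159 (log2 ratio -0.15). The summed TPM was lower in LL females (log2 ratio -0.29, exact permutation p = 0.0238), on a scale where the median of all genes was -0.079. The sum scaled to library totals gave -0.15 (exact permutation p = 0.0794).

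The genotype effect did not differ by sex past the threshold for any of the 10 genes with DESeq2, edgeR or limma, and with DESeq2 none had an unadjusted p below 0.05. Across all genes 0.119% were called and 5.67% had an unadjusted p below 0.05 with DESeq2. With limma on log2(TPM + 1) 1657 of all 10938 genes had one, and the median interaction over all genes was -0.29. Of the 10 genes 4 had one there, namely Ugt2b36 (0.0190), Ugt2b5 (0.0256), Ugt2a3 (0.0297) and Ugt2b38 (0.0394), at adjusted P from 0.264 to 0.316. For Ugt2b38 it was also below 0.05 with no filter on low counts (0.0456), with the transcript length offset (0.0488), and without male PP 3, female PP 5 or female LL 1 (0.00761 to 0.0141). Ugt2b38 came closest (interaction -1.33, 95% interval -2.83 to 0.16, DESeq2 unadjusted p = 0.0809, no adjusted P). The intervals were narrowest for Ugt3a1 (-0.23 to 0.42) and Ugt2b36 (-0.24 to 0.43).

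**Figure D4:**
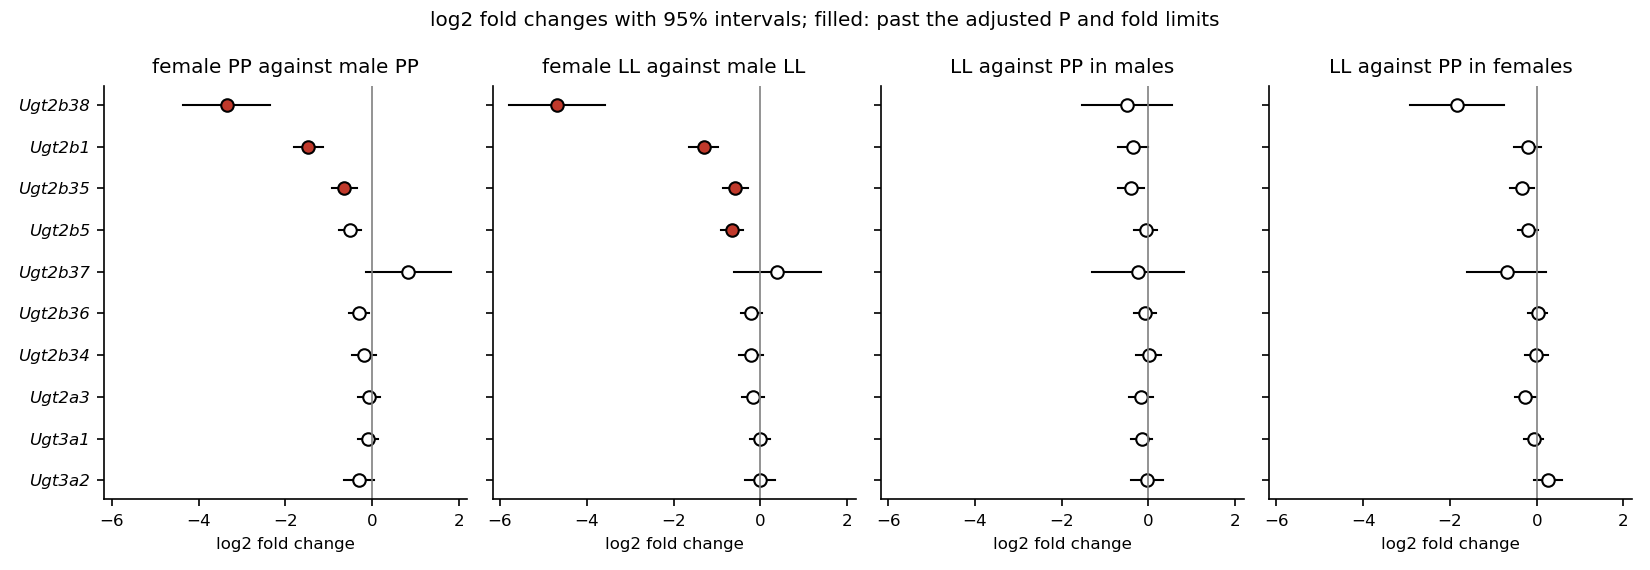
log2 fold changes (points) with 95% intervals (lines) of the 10 genes in the 4 comparisons, on a shared axis. Filled points passed the adjusted P and fold limits: 3 genes in female PP against male PP, 4 in female LL against male LL, and none by genotype.

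Other genes of glucuronidation differed by sex in both directions. Of 11 other Ugt genes 6 were tested. Ugt1a5, Ugt1a9 and Ugt1a1, which encodes the bilirubin enzyme, were higher in PP females than in PP males (log2 fold changes 2.62, 1.24 and 0.68), and Ugt1a6a was lower (-0.68). The same 4 genes were called in LL mice with the same signs (1.82, 1.26, 0.75 and -0.56). The Ugt1a6a call in LL mice was at the limit (DESeq2 adjusted P = 0.0498) and was made in 9 of 28 alternatives. Ugt1a genes share their downstream exons, so the division of reads between them is uncertain, and the TPM scale gave the same signs for these 4. Ugt2a1 was at 0 in all 18 libraries, where a count of 0 allows up to 3 counts per library, and Ugt2a2 had at most 0.940 normalized counts.

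Of 9 genes for the supply of UDP-glucuronic acid and the handling of glucuronides, 3 were lower in female PP mice and none was higher. Abcg2, an efflux pump for conjugates at the canalicular membrane, fell from 419 ± 53.8 normalized counts in male PP to 155 ± 24.8 in female PP mice (SD, log2 fold change -1.43). Ugdh, the enzyme that makes UDP-glucuronic acid, fell from 651 ± 57.1 to 365 ± 62.8 (-0.84), and Slc35d1, a carrier of nucleotide sugars into the endoplasmic reticulum, from 453 ± 24.7 to 315 ± 17.3 (-0.53, with the sign turned on TPM at 0.50). In LL mice Abcg2 (-1.26) and Gusb, the lysosomal glucuronidase (-0.64), were lower in females. DESeq2 adjusted P for these 5 calls ran from 7.25e-13 to 0.0237. The Gusb call was made in 18 of 28 alternatives (log2 fold change -0.74 to -0.11) and the Slc35d1 call in 22 of 28.

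Of 15 regulators known to act on Ugt genes or on sex differences in liver, Cux2, a repressor typical of female liver, was higher in female PP mice (62.2 ± 50.9 against 1.56 ± 1.39 normalized counts, SD, DESeq2 adjusted P = 1.23e-09) and Bcl6, a repressor typical of male liver, was lower (26.2 ± 9.36 against 111 ± 74.5, DESeq2 adjusted P = 0.0147). In LL mice Cux2 (34.99 ± 14.3 against 0.540 ± 1.08 normalized counts, SD), the nuclear receptor Nr1i3 (log2 fold change 0.93) and Stat5b (0.65), a mediator of growth hormone signals, were higher in females. The Stat5b call in LL mice was made in 19 of 28 alternatives and the Bcl6 call in PP mice in 23 of 28. The receptors Nr1i2, Ahr, Ppara and Nr1h4 and the liver factor Hnf4a were not called in any comparison. None of the genes of these lists was called by genotype in either sex. Alb, of the hepatocyte markers, was called for the genotype by sex interaction (-0.61, DESeq2 adjusted P = 0.0180), in 16 of 27 alternatives. Its mean normalized counts were 348169 in PP and 450430 in LL males, and 666570 in PP and 566181 in LL females. Of 15 markers of other cells 11 were tested. Among these Reln, Kdr and Lrat, of stellate and endothelial cells, were higher in PP females than in PP males (log2 fold changes 1.24, 1.17 and 1.04). Lrat was near the limit (DESeq2 adjusted P = 0.0490) and was called in 14 of 28 alternatives. No other marker was called by sex in PP mice, and none in LL mice. The summed markers were 456 to 762 normalized counts in male PP and 746 to 1106 in female PP mice. In LL mice they were 507 to 568 in males and 558 to 838 in females. The part of cell composition in the sex differences was not tested.

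The genes most like Ugt2b38 over the 18 libraries were C6 (Pearson r = 0.950), Nudt7 (0.950) and Mup13 (0.949), on log2(normalized count + 1). These points fall into separate male and female clusters. Within males the r values were 0.44, 0.64 and 0.35 (8 libraries) and within females 0.77, 0.84 and 0.89 (10 libraries). The genes most like Ugt2b37 were Klf10 (0.88), Slf1 (0.81) and Cyp2c70 (0.80), with r of 0.82, 0.76 and 0.62 within males and 0.91, 0.87 and 0.91 within females. Among the members themselves, Ugt2b5 and Ugt2b36 had r = 0.96 within males and 0.08 within females, and Ugt2b1 and Ugt2b38 had 0.77 within males and 0.78 within females. These are descriptions, without a test, of libraries that share depth scaling.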

How the data were processed

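Liver RNA of 18 mice was extracted with Trizol and RNeasy columns by the authors, and samples with RIN above the limit of the study were sequenced. Reads were checked with FastQC, left untrimmed and assigned by Salmon (1.4.0 in the submitters' processing notes) to GENCODE release M26 transcripts of GRCm39. The deposited tables hold estimated counts, which are not scaled between libraries, and TPM values, which the authors' tool scaled to a common total, with transcript length and effective length. Length minus effective length (median over transcripts of at least 3000 bases) served as fragment length.

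Estimated counts were summed per gene through the M39 annotation, which held 137570 of 139225 transcripts and at least 99.76% of the counts of a library, and were rounded. The 10938 genes that reached 10 counts in 4 or more libraries were tested with DESeq2 1.42.0 (R 4.3.3, Wald test, median-of-ratios size factors, 4 groups in 1 fit of 18 libraries, after the methods of the study). Calls needed an adjusted P (Benjamini-Hochberg) under 0.05 and a fold of 1.3 or more, or 0.7 or less (no fold limit for the interaction). An adjusted P left empty by independent filtering stayed empty. Errors are SE for log2 fold changes and SD over mice otherwise, and P values for single quantities come from two-sided exact permutation tests on group means. The alternatives were edgeR 4.0.16 (quasi-likelihood), TMM scaling, no filter on low counts, no independent filtering, fragment length or age as a term, the replicate number as a block, a transcript length offset, limma 3.58.1 on log2(TPM + 1), a fit of the 2 groups alone, and each of the 18 libraries left out. The fit was checked on simulated counts. No pair of libraries in a group agreed within sampling noise (chi-square per degree of freedom 12.3 to 107), so each was counted. Depth limits genes at a few counts, such as Ugt2b38 in females.

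The 10 members and the gene lists were chosen with earlier results of these data known. The text names all members, up to 4 called genes with the smallest adjusted P per list and comparison, and for the members highest in females and in males the 3 genes most like each. A few list genes that were not called are also named, chosen after their values were seen. Coding and promoter sequences were read from GRCm39 with M39 gene models, which are longer than those in the tables for some members. The promoter is the 250 bases before the most counted transcript.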

Additional observations from a re-analysis of the deposited data

Results flagged for a closer look

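In male LL mice Ugt2a3 had 1744 normalized counts in male LL 2, apart from the other 3 libraries of the group, which lay from 1297 to 1323. This was the only such value among 40 combinations of member and group, and chance alone flags about 1 in 20. With that library left out, the log2 fold change of Ugt2a3 between male LL and male PP mice was -0.28, and it was -0.17 with all libraries. Male LL 2 also had the shortest fragments of the 18 libraries (203 bases), and the part of this in the value was not tested.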

How the results depend on the processing

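Independent filtering of DESeq2 left the genotype values of Ugt2b37 and Ugt2b38 in males without an adjusted P, and without it these were 0.980 and 0.920. The count of members called held within 1.5 times under all alternatives in males by genotype and for the interaction. In females by genotype it was 0 to 1 when a library was left out, and 1 with no filter on low counts. By sex it was 7 in PP and 2 in LL mice with limma on log2(TPM + 1), against 3 and 4, and over all 10938 genes it was 4307 and 451, against 705 and 669. The cause was not tested. Replicate numbers did not pair the mice (correlation of same-numbered deviations -0.17 to 0.16 over 25 pairs). With the replicate block, 1 member (Ugt2b38) was called by genotype in females, and no other call of a member changed. The interaction of Ugt2b38 then had an unadjusted p of 0.00671 (adjusted P = 0.582).

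The summed level of the 10 genes, as a log2 ratio, was -0.16 by counts scaled to library totals in female PP against male PP mice, and on TPM 0.41 there, -0.23 in LL mice, 0.35 by genotype in males and -0.29 in females. Leaving out a library gave -0.15 to -0.064 in females by genotype. The sum of Ugt2b5, Ugt2b37 and Ugt2b38, added after seeing the data, turned in males by genotype (0.046 by library totals, 0.38 on TPM) and in PP mice by sex (0.31 on TPM).

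The following log2 fold changes turned sign, that of the called Ugt2b35 in PP mice among them. On log2(TPM + 1) these were, in female PP against male PP mice, Ugt2a3 0.80, Ugt2b34 0.69, Ugt2b35 0.24, Ugt2b36 0.65, Ugt2b5 0.33, Ugt3a1 0.77 and Ugt3a2 0.51. In LL mice they were Ugt2a3 0.19, Ugt2b34 0.18 and Ugt3a1 0.36. In males by genotype they were Ugt2a3 0.28, Ugt2b1 0.11, Ugt2b35 0.075, Ugt2b36 0.46, Ugt2b37 0.17, Ugt2b5 0.37, Ugt3a1 0.28 and Ugt3a2 0.12. In females, where the median of all genes on this scale was -0.079, they were Ugt2b36 -0.33 and Ugt3a2 -0.10. For the interaction, where that median was -0.29, they were Ugt2b1 -0.35, Ugt2b35 -0.42, Ugt2b36 -0.80, Ugt3a1 -0.41 and Ugt3a2 -0.22. With the transcript length offset they were Ugt2a3 0.015 (PP by sex), Ugt3a1 0.017 and Ugt3a2 -0.074 (LL by sex), Ugt2b36 0.10 and Ugt2b5 0.015 (males), Ugt2b34 0.064, Ugt2b36 -0.29 and Ugt3a2 -0.010 (females) and Ugt2b36 -0.39 (interaction). With age as a term, Ugt2b34 was -0.047 and Ugt2b37 0.15 in males and Ugt3a1 0.0087 in LL mice by sex. With fragment length as a term, Ugt2b34 was -0.032 in males and Ugt2b36 -0.015 in females. In LL mice by sex Ugt3a2 was -0.00016 with edgeR and -0.00079 with no filter on low counts, and Ugt3a1 0.0034 with only the 2 groups in the fit.

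Leaving out single libraries turned the sign of Ugt2a3 by sex in PP mice (-0.17 to 0.042), of Ugt3a1 (-0.11 to 0.079) and Ugt3a2 (-0.17 to 0.14) in LL mice, of Ugt2b34 (-0.081 to 0.096), Ugt2b37 (-0.46 to 0.11), Ugt2b5 (-0.11 to 0.0047) and Ugt3a2 (-0.17 to 0.14) in males, of Ugt2b34 (-0.076 to 0.073) and Ugt2b36 (-0.039 to 0.071) in females, and of Ugt2a3 (-0.21 to 0.021), Ugt2b34 (-0.11 to 0.069), Ugt2b35 (-0.024 to 0.16) and Ugt3a1 (-0.017 to 0.17) for the interaction.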
